A study of Homo sapiens with 8 samples.

Results

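LINC genes are long intergenic noncoding RNAs named only by LINC and a number. Their expression, their IP over input and the change of both after METTL14 knockdown were described in SK-N-BE(2), an established human neuroblastoma cell line. Members were selected on measured values, namely at least 200 counts summed over the 4 input libraries. This left 91 of the 967 LINC genes in a count table of 56303 genes. Of the remaining LINC genes, 369 had no count in any library and 507 had counts below the threshold. Stable lines were made by lentivirus and puromycin selection with either a control hairpin RNA (sh-NC) or a hairpin RNA that targets METTL14 (shMETTL14), and there were 2 cultures per arm. Each culture gave 1 m6A immunoprecipitation (IP) library and 1 input library of the same poly(A) RNA, so that there were 8 libraries. The labels do not say whether the shMETTL14 cultures are repeats of 1 shRNA or carry different shRNAs, nor whether the cultures of an arm were grown separately. The p-values therefore measure the spread between these libraries, part of which may be technical.

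Long noncoding RNAs are transcribed by RNA polymerase II and mostly spliced and polyadenylated like mRNAs, and many act close to where they are made, at neighbouring genes. m6A is a methyl mark on adenosine. It is written during transcription by a complex of METTL3, which carries the catalytic site, and METTL14, which holds the RNA. In mRNAs the mark lies mainly in long internal exons and near stop codons, and noncoding RNAs such as MALAT1 carry it as well. In MeRIP-seq an antibody enriches fragments with m6A, so a gene with more of the mark than the average gene takes a higher share of the IP than of the input. The values here are counts over whole genes and do not show where in a transcript a mark lies.

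Total counts ran from 32027379 to 47205265 per library. METTL14 itself stood at 51.6 and 50.9 CPM (counts scaled to library size, using TMM factors) in the inputs of sh-NC, against 14.3 and 15.3 in those of shMETTL14, a log2 change of -1.79 ± 0.07 (SE, n = 2 cultures per arm, edgeR adjusted p = 1.28e-15). Of the adrenergic neuroblastoma markers, HAND2 stood at 1030 to 1152 CPM and MYCN at 4405 to 4636 CPM over the 4 inputs, whereas none of 4 blood markers was above 1 CPM. With METTL14 knockdown the adrenergic markers did not move alike. TH rose by 1.03 on the log2 scale (adjusted p = 7.94e-13), while MYCN changed by -0.01 (adjusted p = 0.878). Of the 5 mesenchymal markers 4 fell, and PRRX1, which was under 1 CPM in each input, rose by 1.53 on the log2 scale (adjusted p = 0.0246). Their summed level went from 2297 and 2369 CPM to 1914 and 1907 CPM. The part of such marker changes in the results on LINC genes was not tested. In bulk cultures, fewer cells of a kind and less RNA per cell cannot be told apart.

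The 250 bases upstream of the RefSeq start are printed for the 4 LINC genes on which the results turn. LINC00634 had the largest rise in input RNA, LINC01572 the smallest standard error among the 6 largest rises, LINC01468 the largest fall and LINC00839 the highest level per kilobase of exon. Sequences are from RefSeq on GRCh38.p14, 5′ to 3′ on the strand of the gene, and capitals mark the motifs searched on both strands. The windows are chr22:41951900-41952149 (+), chr16:72664971-72665220 (-), chr10:52470534-52470783 (-) and chr10:42475241-42475490 (+).
LINC00634: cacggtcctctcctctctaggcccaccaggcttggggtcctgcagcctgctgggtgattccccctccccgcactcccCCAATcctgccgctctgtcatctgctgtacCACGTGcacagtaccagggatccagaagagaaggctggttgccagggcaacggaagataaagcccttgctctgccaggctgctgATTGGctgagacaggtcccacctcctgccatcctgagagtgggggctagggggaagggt
LINC01572: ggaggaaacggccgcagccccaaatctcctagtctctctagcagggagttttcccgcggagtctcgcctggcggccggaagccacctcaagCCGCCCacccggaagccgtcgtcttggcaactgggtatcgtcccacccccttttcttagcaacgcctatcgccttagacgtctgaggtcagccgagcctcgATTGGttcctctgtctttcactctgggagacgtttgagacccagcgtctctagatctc
LINC01468: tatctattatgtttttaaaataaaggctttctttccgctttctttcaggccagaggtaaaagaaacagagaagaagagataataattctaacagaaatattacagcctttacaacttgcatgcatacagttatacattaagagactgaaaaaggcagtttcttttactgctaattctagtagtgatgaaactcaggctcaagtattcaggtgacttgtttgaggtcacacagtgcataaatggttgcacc
LINC00839: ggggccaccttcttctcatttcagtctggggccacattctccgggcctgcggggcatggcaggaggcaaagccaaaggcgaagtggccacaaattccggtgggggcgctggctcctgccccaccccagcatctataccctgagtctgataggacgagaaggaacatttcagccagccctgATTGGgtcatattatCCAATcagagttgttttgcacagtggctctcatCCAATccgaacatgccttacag
The motifs were CACGTG (the E-box), CCAAT (the CCAAT box), TATAAA (the TATA box) and GGGCGG (the GC box); matches of one motif may overlap one another. The window of LINC00634 held 1 E-box and 2 CCAAT boxes, and that of LINC00839 held 3 CCAAT boxes. LINC01572 had 1 CCAAT box and 1 GC box. None of the motifs was found for LINC01468, whose window was also poor in G and C (34.8%, against 62.4% for LINC00634). RefSeq promoter windows were found for 73 of the 91 members. Of these, 39.73% held CCAAT, against 32.01% of all 35116 windows. For GGGCGG the shares were 45.21% and 42.64%, for CACGTG 6.849% and 6.345%, and for TATAAA 6.849% and 10.72%. A match describes the letters in the window and not the binding of a factor.

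The members were spread over 23 chromosomes. The median listed exon length was 3456 bases (592 to 17599), with a median of 5 exon blocks, and 11 members had a single block. In the current RefSeq annotation 83 were long noncoding RNAs, 7 had become protein coding genes and 1 (LINC01296) had no record; 22 of the 91 now have another symbol. Exons of 43 members did not overlap any other gene of the table. For the other 48 the strand setting of the counting is not given, so reads of the overlapping genes cannot be told apart, and at least 10% of the exonic bases were shared in 23.

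Expression of LINC genes was low and uneven. Over the 4 inputs the members had a median of 602 counts and a maximum of 10639 (LINC00963), and the 5 most abundant members held 34.1% of all member counts. Per kilobase of exon the median input level was 1.65 CPM (0.109 to 28.9), against 5.29 for protein coding genes at the same count threshold. The threshold itself used these counts, so the levels are a description. Together the members took 0.0707% to 0.0747% of the counts of an input library and 0.0874% to 0.0932% of those of an IP library. Just inside the threshold lay LINC00702 (202 counts), LINC00869 (211) and LINC01415 (212), and just outside it LINC01481 and LINC01561 (198 each) and LINC00337 (197).

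LINC00839, a noncoding RNA described in neuroblastoma and other tumours, had the highest level per kilobase, with 28.9 CPM per kb. Its input held 62.4 and 63.2 CPM in the control arm and 71.7 and 72.9 CPM after knockdown. LINC00342 followed with 14.6 CPM per kb. LINC00843, now annotated as the readthrough transcript TIMM23B-AGAP6, had 9.68 CPM per kb, but 18.4% of its exonic bases are shared with TIMM23B. CHASERR (LINC01578), which represses its neighbour CHD2 in cis, had 8.84 CPM per kb. LINC00632, the host transcript of the circular RNA CDR1as, had 6.69 CPM per kb. LINC00294 (5.67 CPM per kb), SMIM30 (LINC00998, 5.64 CPM per kb) and LINC00963 (5.45 CPM per kb) lay close together. LINC00963 was nevertheless the most abundant member by count, because its listed exons span 13171 bases.

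In input RNA, 17 of the 91 members were higher (18.7%) and 10 were lower (10.99%) in shMETTL14 than in sh-NC at an adjusted p under 0.05 (edgeR), and 64 were not called. Of all genes tested, 11.7% were called higher and 12.3% lower. At the count threshold of the members the shares were 15.03% and 15.78% for all genes and 16.98% and 18.31% for protein coding genes. The members' share of higher calls thus lay slightly above and their share of lower calls below these backgrounds. Their median log2 change was 0.09, against 0.002 over all genes tested, and the members ranged from -1.35 to 1.31. Of the 27 calls, only 1 rise and 2 falls passed 2-fold.

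LINC00634, now annotated as SMIM45, which encodes a small protein, showed the largest rise. Its gene lies at chr22:41952165-41958933 on the plus strand and shares no exon with another gene. The control inputs held 4.02 and 3.04 CPM, and those with METTL14 knockdown held 9.05 and 8.43 CPM. The log2 change was 1.31 ± 0.15 (SE, n = 2 per arm, edgeR adjusted p = 2.27e-07). LINC01572, a long locus on chromosome 16 with 20 exon blocks, rose from 6.93 and 7.14 CPM to 12.02 and 11.56 CPM (log2 change 0.74 ± 0.11, adjusted p = 1.26e-05). The values within each arm were close, but 31.8% of its exonic bases lie in exons of another gene.

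The other rises named were of members with fewer counts. LINC00893, also called EOLA1-DT because it is transcribed divergently from EOLA1, stood at 1.37 and 1.33 CPM in sh-NC and at 2.22 and 3.18 CPM in shMETTL14 (log2 change 1.00 ± 0.24, adjusted p = 0.00328). The shMETTL14 cultures were further apart than the sh-NC cultures, and 37.0% of its exonic bases lie in exons of other genes, mainly AF011889.5, which had the higher read density. LINC00682 went from 1.34 and 1.39 CPM to 2.67 and 2.35 CPM (0.88 ± 0.23, adjusted p = 0.00692). LINC00205 went from 1.40 and 1.39 CPM to 2.40 and 2.53 CPM (0.82 ± 0.23, adjusted p = 0.0109). LINC00473, known as a target of cAMP signalling through CREB, went from 1.02 and 1.10 CPM to 1.85 and 1.85 CPM (0.81 ± 0.27, adjusted p = 0.0327), with 11.4% of its exonic bases shared. The arms did not overlap in these genes, but the genes were chosen among called members, so this adds no support. LINC00473 was not called with DESeq2 or without the filter on low counts. LINC00205 was not called with DESeq2, and LINC00893 was not called without the filter.

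LNCAROD (LINC01468), known as an activating regulator of DKK1, showed the largest fall. Its input level was 4.25 and 4.799 CPM in sh-NC and 2.03 and 1.53 CPM in shMETTL14 (log2 change -1.35 ± 0.19, SE, n = 2 per arm, adjusted p = 1.08e-05). LINC00639 on chromosome 14 fell from 19.9 and 20.1 CPM to 8.51 and 9.16 CPM (-1.18 ± 0.09, adjusted p = 7.39e-10). This was the fall with the smallest adjusted p of all members. The replicates of either arm differed by far less than the arms.

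Falls of the remaining named members were smaller or less certain. LINC00294, a single exon inside the body of TCP11L1, fell from 24.0 and 19.9 CPM to 15.2 and 15.8 CPM (-0.50 ± 0.09, edgeR adjusted p = 1.33e-04). Of its bases, 17.4% lie in exons of other genes, among them PIGCP1. LINC01116 fell from 2.71 and 3.12 CPM to 2.05 and 1.88 CPM (-0.57 ± 0.21, adjusted p = 0.0467). LINC00674 fell from 4.95 and 3.85 CPM to 2.99 and 3.05 CPM (-0.54 ± 0.17, adjusted p = 0.0246), and the change lay between -0.71 and -0.35 when 1 culture was left out. LINC01415 had 1.34 and 2.52 CPM in the control inputs, against 0.766 and 1.20 CPM after knockdown. Its sh-NC cultures differed widely, and its log2 change of -0.97 ± 0.32 (adjusted p = 0.0285) moved between -1.35 and -0.45 when 1 culture was left out. LINC01116, LINC00674 and LINC01415 were not called with DESeq2 or without the filter on low counts. LINC00294 was not called without this filter.

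**Figure D1:**
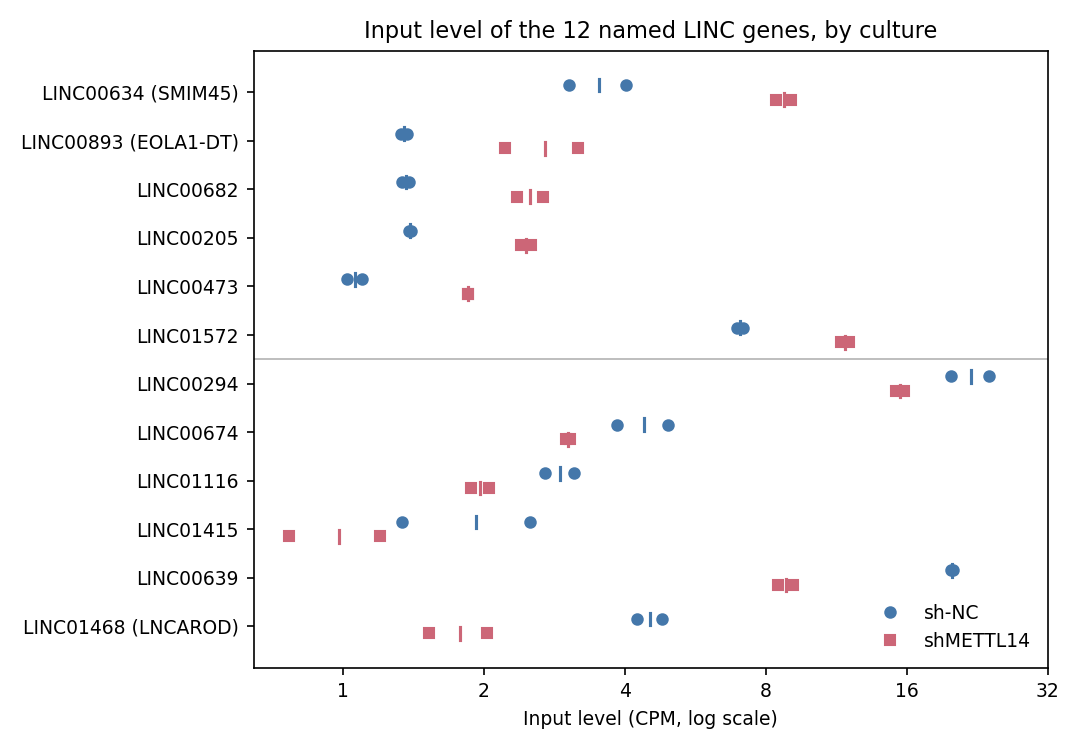
Input level in CPM (log scale) of the 6 LINC genes with the largest called rise, above the line, and the 6 with the largest called fall, below it; points are the cultures, blue for sh-NC and red for shMETTL14, and short bars are the means of 2 cultures. The genes were chosen by their call, so the separate points of the arms add no support. LINC00634 runs from 3.04 and 4.02 to 8.43 and 9.05 CPM, and LINC01415 has the widest spread within an arm.

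The standard errors of the abundant members were small, and several of these members changed little in size. LINC00839 rose by 0.20 ± 0.05 on the log2 scale (adjusted p = 0.00211), whereas LINC00963 fell by 0.26 ± 0.05 (adjusted p = 1.38e-04) and CHASERR fell by 0.22 ± 0.06 (adjusted p = 0.00503). LINC00342, also abundant, rose more, by 0.50 ± 0.06 (adjusted p = 1.61e-06). Of the 27 calls, 7 were also made when any 1 culture was left out, with DESeq2 and without the filter on low counts. These were the rises of LINC00634, LINC01572, LINC00654 and LINC00342 and the falls of LINC01468, LINC00639 and LINC00963. The calls of LINC00839 and CHASERR were not among them, and CHASERR was not called without the filter on low counts. LINC00654 lies outside the rule for named genes and is named for this check; it changed by 0.63 ± 0.09 (adjusted p = 1.35e-05). Without the second shMETTL14 culture, 4 members were called higher and 3 lower.

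**Figure D2:**
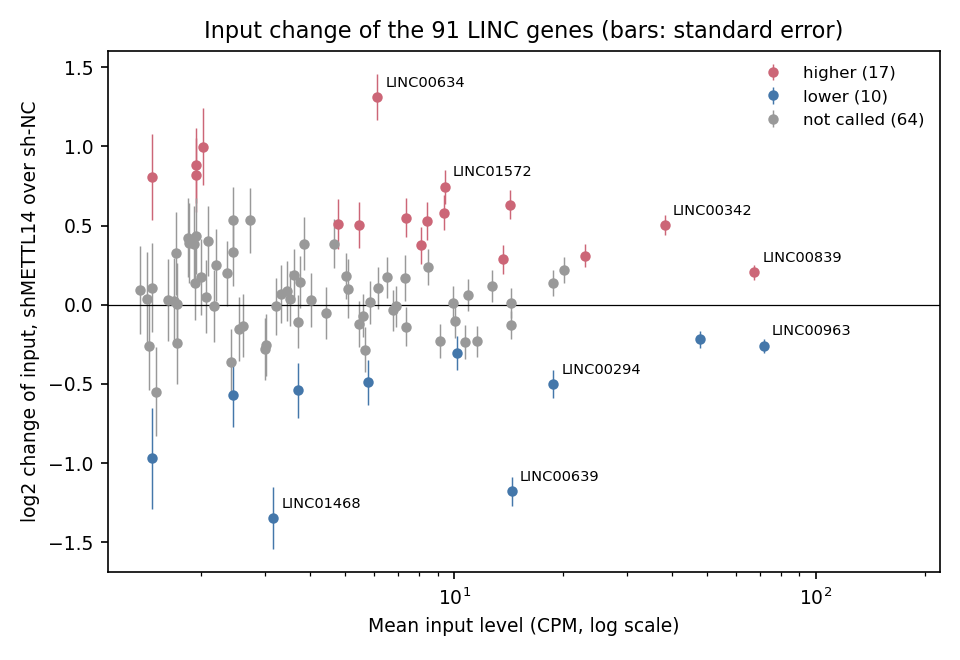
Log2 change of input RNA, shMETTL14 over sh-NC, against the mean input level in CPM (log scale) for the 91 LINC genes; bars are standard errors, red points were called higher (17), blue points lower (10) and grey points were not called (64). LINC00634 at 1.31 and LINC01468 at -1.35 lie at the ends, while the abundant LINC00839 and LINC00963 lie near 0 with short bars.

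Of 14 higher members with a promoter window, 9 held CCAAT and 2 held CACGTG; of 9 lower members, 3 held CCAAT and none held CACGTG. Neither group had TATAAA, and GGGCGG was found in 5 of the higher and 4 of the lower members. The median G and C content was 55.4% in the higher and 54.8% in the lower members, against 59.2% in all members with a window. These are descriptions of small groups.

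Since many long noncoding RNAs act at neighbouring genes, the nearest expressed protein coding gene of each called member was compared. For the 27 called members, this gene was called in the same direction in 6 cases, in the opposite direction in 3 and not called in 18. The 9 called neighbours are 33.3% of the 27, against 35.29% of protein coding genes at the count threshold and 24.0% of all genes tested, so that the share was near the background. DKK1, a secreted Wnt inhibitor whose start lies 156237 bases from that of LNCAROD, fell by 0.57 ± 0.04 on the log2 scale (adjusted p = 7.06e-10). SOX11, a neural transcription factor 240020 bases from LINC01105, rose by 0.35 ± 0.04 (adjusted p = 5.89e-08). LINC01105, now called SILC1 and known to promote Sox11 expression in neurons, rose as well, from 7.60 and 7.40 CPM to 10.7 and 11.8 CPM (0.58 ± 0.11, adjusted p = 2.91e-04).

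In the other cases of the same direction, the transcription factor gene TCF4 fell by 0.48 ± 0.04 with LINC01415 and TCP11L1 fell by 0.19 ± 0.06 with LINC00294. KIZ, which encodes a centrosome protein, rose by 0.37 ± 0.05 with LINC00237, and VIPR2, the gene of a neuropeptide receptor, rose by 0.51 ± 0.12 with LINC00689. VIPR2 and LINC00689 share exons, over 22.1% of the exonic bases of LINC00689 (log2 change 0.51), so their reads cannot be told apart. In the opposite direction, TMEM33 fell by 0.59 ± 0.07 where LINC00682 rose. PDE10A, a cyclic nucleotide phosphodiesterase gene, fell by 0.27 ± 0.06 where LINC00473 rose, and CDC42 rose by 0.19 ± 0.05 where LINC00339 fell. CHD2, the neighbour of CHASERR, changed by -0.09 ± 0.04 (adjusted p = 0.0789) and was not called.

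In 11 members the start lay within 1000 bases of the start of a protein coding gene on the opposite strand. The signs of the changes were alike in 5 of these pairs, 1 of the noncoding members and 3 of the coding partners were called, and no pair was called on both sides. LINC00476, LINC00936, LINC00649, LINC00894 and LINC01006 share 277, 82, 300, 159 and 53 exonic bases with their partner. Reads of those bases cannot be told apart. The signs were alike in the pairs of LINC00476, LINC00936 and LINC00649, but not in those of LINC00894 and LINC01006. The background for the partners is again the 35.29% of protein coding genes. The called member was LINC00893, and its partner CXorf40A, now EOLA1, stood 604 bases away with a change of 0.20 ± 0.12 (adjusted p = 0.264). The called partners were SLC12A2 beside LINC01184, CAPN15 beside LINC00235 and ATP2B1 beside LINC00936.

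IP over input was high in LINC genes. In sh-NC, 47 of the 91 members were above input (51.6%) and 9 were below it (9.89%), and 35 were not called. The background was 29.1% above and 29.8% below over all genes tested. At the same count threshold 36.35% and 36.37% of all genes were called, 38.31% and 35.97% of protein coding genes, and 40.49% and 22.01% of the 368 genes named as antisense (AS and a number). The median log2 IP over input was 0.32 in the members, 0.20 in the antisense genes, 0.004 in protein coding genes and -0.01 over all genes tested. In the 43 members without exon overlap it was 0.41. The values are relative, because the factors that scale the libraries set the average gene near 0. With scaling by library size alone the median of all genes tested was -0.14, and 41 members lay above and 11 below input.

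**Figure D3:**
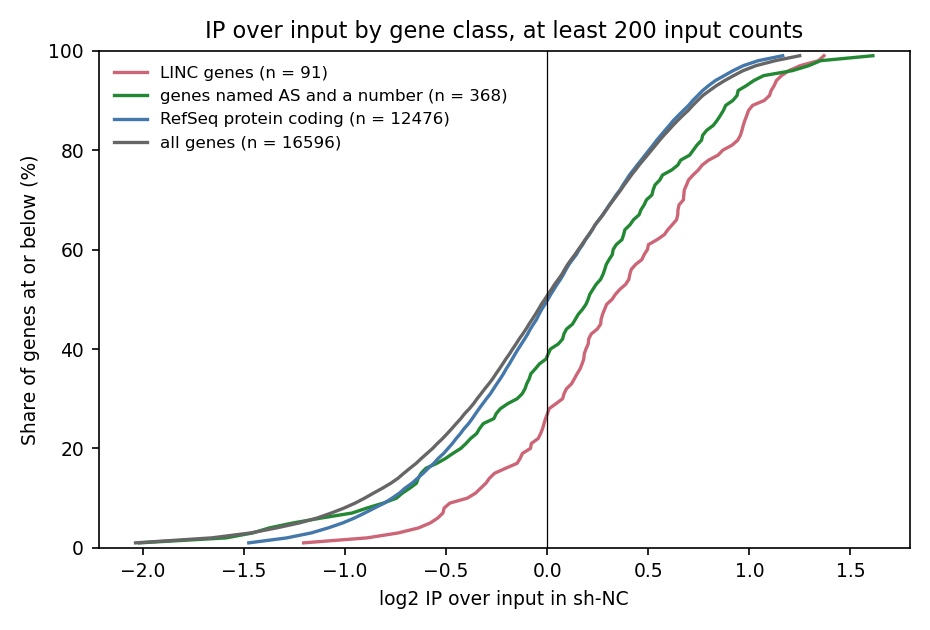
Cumulative share of genes, in percent, at or below each log2 IP over input in sh-NC, for genes with at least 200 input counts; the lines are the 91 LINC genes, 368 genes named AS and a number, 12476 protein coding genes and all 16596 genes. The line of the LINC genes lies to the right of the others over most of its course, with its median at 0.32 against 0.004 for protein coding genes.

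LINC00237 had the highest IP over input in sh-NC. Control cultures gave IP to input ratios of 2.60 and 2.72, and knockdown cultures gave 1.93 and 2.32. This corresponds to a log2 value of 1.41 ± 0.11 for sh-NC (SE, n = 2 cultures, adjusted p = 3.59e-16). LINC01291 reached 2.52 and 2.64 in sh-NC (log2 1.365 ± 0.22, adjusted p = 3.54e-07). LINC00648 reached 2.22 and 2.46 (log2 1.22 ± 0.22, adjusted p = 3.18e-06). LINC01271 and LINC01270, with log2 values of 1.34 ± 0.14 and 1.18 ± 0.14, overlap each other over 59.2% and 44.2% of their exonic bases and are not separate observations. In all 5 genes every culture of either arm had a ratio above 1.

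LINC01050 had the lowest IP over input in sh-NC, with ratios of 0.337 and 0.214 (log2 -1.87 ± 0.34, adjusted p = 5.66e-06). These ratios rest on 24 and 13 IP counts. NBDY (LINC01420), which encodes a small protein that binds the mRNA decapping complex, had ratios of 0.449 and 0.472 in control cultures, and 0.387 and 0.486 after knockdown. It was thus low in all 4 cultures (log2 -1.13 ± 0.15 for sh-NC, adjusted p = 4.08e-09). LINC01355, with log2 -0.83 ± 0.32, LINC01341, with -0.69 ± 0.28, and LINC00960, with -0.60 ± 0.23, were also called below input, with adjusted p of 0.0225, 0.0275 and 0.0221. Their ratios in sh-NC lay between 0.481 and 0.674. They rest on 42 and 28 IP counts for LINC01355, 48 and 34 for LINC01341, and 77 and 54 for LINC00960. Of the exonic bases of LINC01341, 24.05% lie in exons of KIF28P. In shMETTL14, LINC01355 and LINC00960 were called below input as well, whereas LINC01341 was not (edgeR adjusted p = 0.381).

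The size of the longest exon is of interest because m6A is known to favour long exons. The 16 members whose longest exon was under 1000 bases had a median log2 value of -0.11 for sh-NC, with 5 above and 5 below input. The 35 members with 1000 to 2000 bases had a median of 0.64, with 20 above and 3 below. The 40 members with 2000 bases or more had a median of 0.31, with 22 above and 1 below. At the count threshold 36.35% of all genes were above and 36.37% below input. Shares by longest exon are not given for all genes, so a difference between these groups is not shown to be particular to LINC genes. There was no steady trend across the 91 members, with a Spearman's rho of 0.03 between longest exon and IP over input and of 0.07 between input level and IP over input. Both are descriptions across genes, which share their libraries and are not independent replicates.

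In shMETTL14, 44 members were above input (48.4%) and 6 were below it (6.59%), and the median log2 value was 0.33. The background over all genes tested was 28.9% and 29.1%. At the count threshold of the members it was 36.06% and 35.8% for all genes, and 38.04% and 19.57% for the antisense genes. LINC00909 had the highest value of this arm, which is given after it was seen, with 1.49 ± 0.17. Between the arms, 40 members were called above input in both, which is 85.1% of those of sh-NC and 90.9% of those of shMETTL14. Another 5 were below input in both, and none was called in opposite directions. The arms do not share libraries, and the log2 values of the 91 members correlated with r = 0.852 and rho = 0.843 across genes. Neither the shared calls nor this correlation is given over all genes, so neither is shown to be particular to LINC genes. The median ratio of IP to input came to 1.24 in each control culture and to 1.22 and 1.27 in the knockdown cultures, so that the arms overlapped.

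**Figure D4:**
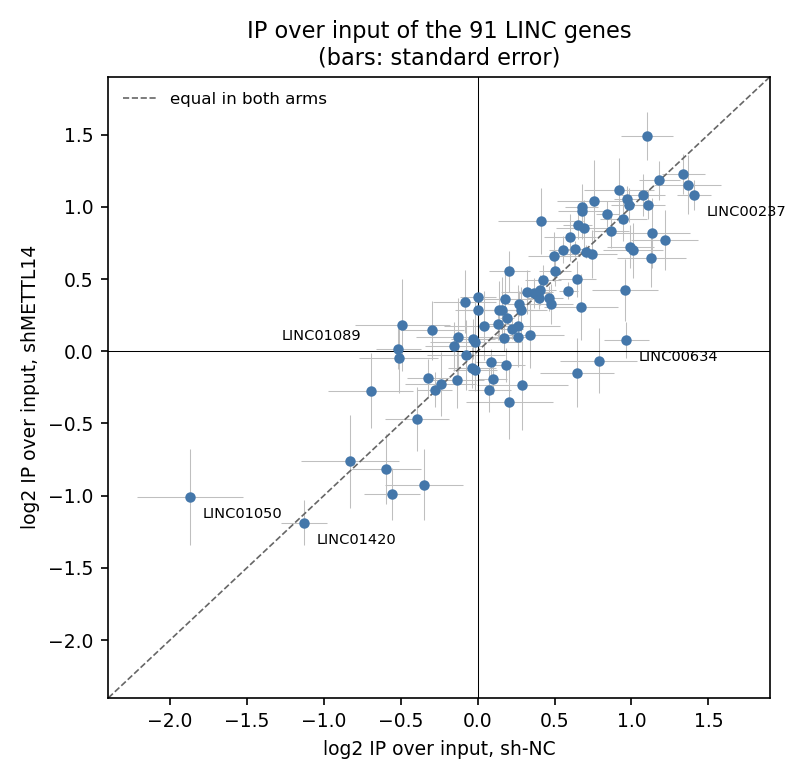
Log2 IP over input for each of the 91 LINC genes, sh-NC on the horizontal and shMETTL14 on the vertical axis; bars are standard errors and the dashed line marks equal values. The points lie along the line (r = 0.852 across genes), with LINC01050 and LINC01420 at the low end and LINC00634 below the line.

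The change of IP over input itself was tested as the difference between the arms. No member passed an adjusted p under 0.05 in edgeR, and DESeq2 called none either. The background was 0% higher and 0.00436% lower, which is 1 gene of 22953 tested. At an unadjusted p under 0.05, 3 members were higher (3.30%) and 5 were lower (5.49%), against a background of 3.03% and 3.31%. The median change was 0.01 and the values ran from -0.89 to 0.86. A smaller ratio in all genes alike would be removed by the scaling and cannot be seen in these values.

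LINC00634 came closest to the threshold. Its IP to input ratio reached 1.64 and 2.39 in the control cultures, and 0.959 and 1.15 after knockdown. The change was -0.89 ± 0.19 (edgeR, unadjusted p = 2.8e-05, adjusted p = 0.128). Over the alternatives its adjusted p ran from 0.00819 to 0.966, and it was called without the filter on low counts and without the first sh-NC culture. In sh-NC the gene was above input (log2 0.97 ± 0.15, adjusted p = 1.13e-07), and in shMETTL14 its value was 0.07 (adjusted p = 0.631). The input of LINC00634 rose in the same cultures, and both measures use the same input libraries.

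LINC00893, another member whose input rose, had ratios of 1.52 and 1.98 in the control cultures, then 1.05 and 0.883 after knockdown (change -0.85 ± 0.34, unadjusted p = 0.0143, adjusted p = 0.679). LINC00926 had ratios of 1.26 and 2.02 and of 0.759 and 1.03 (change -0.79 ± 0.34, adjusted p = 0.718), and its change lay between -1.18 and -0.48 when 1 culture was left out. The remaining lower values at an unadjusted p under 0.05 belonged to LINC00237 (-0.32) and LINC01184 (-0.29). In the other direction, LINC01089, which starts 274 bases from SETD1B on the opposite strand, had 0.779 and 0.585 in the control cultures. After knockdown it had 1.08 and 0.950 (change 0.53 ± 0.20, edgeR adjusted p = 0.679). Of its exonic bases, 51.3% lie in exons of other genes, mainly RP11-347I19.7, so its reads cannot be told apart from theirs. LINC00662 had 0.980 and 1.02 and then 1.37 and 1.23 (0.37 ± 0.16, adjusted p = 0.719). LINC01572 had 1.70 and 1.48 and then 2.00 and 1.99 (0.32 ± 0.14, adjusted p = 0.720). None of these changes passed the adjustment over all genes.

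**Figure D5:**
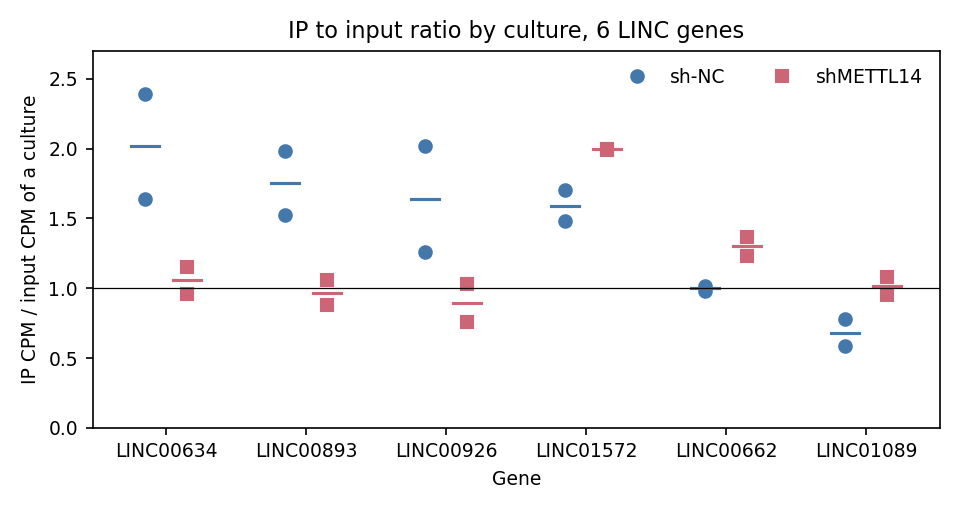
Ratio of IP to input, both in CPM, in each culture of sh-NC (blue) and shMETTL14 (red) for the 3 LINC genes with a lower and the 3 with a higher ratio that had the lowest unadjusted p; short bars are means of 2 cultures and the line marks 1. The genes were chosen by this p, so the separate arms in each gene add no support. LINC00634 stands at 1.64 and 2.39 against 0.959 and 1.15, and no change passed the adjusted p.

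Among the 7 members now annotated as protein coding, 1 rose in input (SMIM45), none fell and 6 were not called. In sh-NC, 3 were above and 2 below input. At the same count threshold, 15.03% of all genes rose and 15.78% fell in input, and 36.35% lay above and 36.37% below input. SMIM26 (LINC00493), a mitochondrial small protein, had ratios of 0.798 and 0.565 (log2 -0.56 ± 0.18, adjusted p = 0.00748) in sh-NC and of 0.525 and 0.484 in shMETTL14 (adjusted p = 4.89e-06). Its sh-NC value lay between -0.81 and -0.32 when 1 culture was left out, with an adjusted p of up to 0.307, and 13.1% of its exonic bases are shared with DTD1. SMIM30, a small membrane protein, was above input, with ratios of 1.27 and 1.38 (log2 0.41 ± 0.10, adjusted p = 4.23e-04). MTLN (LINC00116), a small protein of the mitochondrial inner membrane, had ratios of 1.06 and 0.637 and was not called. In sh-NC the median log2 IP over input of the 7 was -0.29, which is the value of MTLN, against 0.34 for the 83 members annotated as noncoding. In shMETTL14 the medians were 0.10 and 0.34, so the negative sign for the 7 was not seen in both arms.

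Of 2 members annotated as microRNA hosts, MIR570HG (LINC00969) rose in input from 21.0 and 20.0 CPM to 25.3 and 25.5 CPM (log2 change 0.31 ± 0.07, adjusted p = 0.00232), with 24.1% of its exonic bases shared with other genes. MIR124-1HG (LINC00599), the host of the neuronal microRNA miR-124, had 2.27 and 1.74 CPM in sh-NC and 2.87 and 2.93 CPM in shMETTL14 (0.53 ± 0.21, adjusted p = 0.068). It was below input in shMETTL14, with ratios of 0.641 and 0.421 (adjusted p = 0.00118), and not called in sh-NC.

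A list of 20 LINC genes with a background in neural tissue, neuroblastoma or cancer had 17 entries in the table, of which 13 were members and 4 fell under the threshold. In input, 4 of the 13 rose (LINC00839, LINC01105, LINC00665 and LINC00473), 3 fell (CHASERR, CYTOR and LINC01116) and 6 were not called, where 15.03% of all genes at the count threshold rose and 15.78% fell. CYTOR (LINC00152), linked to the cytoskeleton and to tumour growth, fell from 7.02 and 6.48 CPM to 5.32 and 4.28 CPM (-0.49 ± 0.14, adjusted p = 0.0122). LINC00665 rose from 6.82 and 7.29 CPM to 9.37 and 8.91 CPM (0.37 ± 0.12, adjusted p = 0.0197). Neither CYTOR nor LINC00665 was called with DESeq2 or without the filter on low counts, and the same holds for LINC00473 and LINC01116. In sh-NC, 6 of the 13 were above and none was below input, against 36.35% and 36.37% of all genes at the threshold, and their median was 0.36. LINC00511, a cancer-associated noncoding RNA, had ratios of 1.70 and 1.55 in the control and of 1.81 in both knockdown cultures. Of 13 other long noncoding RNAs such as MALAT1, NEAT1 and GAS5, 2 rose and 5 fell in input, and 6 were above and 7 below input in sh-NC.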

How the data were processed

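MeRIP-seq libraries of SK-N-BE(2) cells were grouped from the sample labels. The authors deposited raw read counts per gene, without normalization. The submitters' processing notes name GRCh38 and Trimmomatic 0.36; which aligner and counter were used, with which strand setting, and how molecular identifiers were treated are not given in the sources used here. Duplicates kept in the counts would not be independent molecules. Reads of overlapping genes appear to be counted for more than 1 gene and without regard to strand, so values of such genes are uncertain.

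Counts were tested with edgeR 4.0.16 in R 4.3.3 (TMM factors, filterByExpr, glmQLFit, glmQLFTest, Benjamini-Hochberg over all genes tested, threshold 0.05). The 4 inputs were compared in 1 model (22245 genes) and IP against input, with its change between arms, in a model of 8 libraries (22953 genes); all 91 members passed both filters. SE is the absolute log2 change divided by the square root of F. The prior count of 2 was set for the log CPM behind the correlations of deviations between libraries, not for the fits. Gene names came from RefSeq, 68 by symbol and 22 by synonym. The fits were tested on simulated data. Depth makes counting error small for abundant members; 2 cultures per arm limit the precision.

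Named genes were those with the 8 highest levels per kb, the 6 largest called rises and falls, the 5 highest and lowest called IP over input, the 3 lowest and highest by unadjusted p for the change, and the lists. Members and lists were chosen with earlier results of these data known. Replicate libraries differed by more than sampling noise (chi-square per gene 2.43 to 3.99). Alternatives were RLE factors, library size, other filters, DESeq2 1.42.0, a replicate block, leaving out each culture, members without overlap, other membership thresholds and a 2-fold limit.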

Additional observations from a re-analysis of the deposited data

How the results depend on the processing

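Of 188 values of named genes, 0 of those called changed sign under the alternatives run, whereas 39 that were not called did (for LINC00116, the input change moved from -0.25 to 0.02 without 1 culture). In input RNA, 17 members were higher and 10 lower; without the filter on low counts these were 10 and 3, with DESeq2 11 and 5, among members without exon overlap 10 and 4, and with a log2 change of at least 1 they were 1 and 2. Leaving out 1 culture gave 4 to 17 higher and 3 to 8 lower, the fewest without the second shMETTL14 culture (4 and 3); without the first they were 10 and 5, and without the first sh-NC culture 11 and 6. The lone culture is then assumed to vary like the other arm. Above input in sh-NC were 47 members, with 25 among those without overlap, 31 among those with at least 500 counts and 11 past a log2 of 1; without 1 culture there were 40 to 47. Below input in sh-NC were 9, with 4 by DESeq2, 4 without overlap, 5 with at least 500 counts and 2 past a log2 of -1; without 1 culture there were 2 to 9, with 4 without the first and 2 without the second sh-NC culture. In shMETTL14, 44 above input became 22 without overlap and 11 past a log2 of 1, and 36 to 44 without 1 culture. The 6 below input became 11 with library size only, 2 with at least 500 counts, 2 past a log2 of -1, and 3 to 6 without 1 culture. Fewer members enter the counts without overlap and with at least 500 counts; for the other settings the cause was not tested. For the change of IP over input, 0 were called; an unadjusted p under 0.05 gave 3 higher and 5 lower, no filter gave 1 lower, and leaving out 1 culture gave 0 to 0 higher and 0 to 1 lower, the 1 without the first sh-NC culture.

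With the replicate number as a block the input counts were 19 higher and 10 lower; these samples have nothing but the number in common, and their deviations correlated by -0.012. With the culture as a block, the calls of IP against input were 47 and 9 for the control arm, 44 and 6 for the knockdown arm, and its change gave 0 and 0; IP and input of a culture are paired by the protocol, with correlations of 0.004 and 5.7e-05.

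Members near 200 counts have wide errors, and a change that was not called is not shown to be absent there.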
